A study of Mus musculus with 82 samples.

Results

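The effect of IDOR-1117-2520, an oral small-molecule inhibitor of the chemokine receptor CCR6, on inflamed mouse ear skin was measured at day 8 of a time course. The comparison rests on 12 of the study's 82 libraries, chosen by their labels: 6 from ears given imiquimod and the drug, and 6 from ears given imiquimod alone. Each library holds the polyadenylated RNA of a whole tissue punch, taken from the right ear; the mice were female and of the strain C57BL/6J Rj. Both groups had received cream with 5% imiquimod daily from day 0 to day 7. The drug group drank IDOR-1117-2520 (written IDOR-1117-2520C in its treatment label) in its water from at least a day before the first cream until the end. A sham group of 6 libraries at day 8, labelled vehicle, gave the level of skin without imiquimod. The effect was set beside that of the same drug at day 5 of the time course (6 libraries a group) and in a separate start-day experiment labelled day 8, in which the drug was started on day 0 (6 libraries a group). Mice in all groups share strain and sex. The sources used here give neither their age, nor the dose, nor a link from libraries to animals. The p-values therefore rest on the spread between libraries, which may be partly technical.

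Imiquimod activates the endosomal RNA sensor TLR7 and drives a skin inflammation in which dendritic cells release IL-23 and gamma delta T cells release IL-17A, IL-17F and IL-22. These cytokines make keratinocytes divide, release neutrophil attractants and antimicrobial proteins, and change their programme of differentiation. CCR6 is the receptor for the chemokine CCL20 and is carried by IL-17-producing T cells, which reach the epidermis through it.

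The imiquimod libraries held 14.5 M to 23.7 M counts, the drug libraries 19.9 M to 23 M and the sham libraries 19.4 M to 30.6 M. All 10 epidermal keratinocyte markers were detected, with summed levels of 64064 to 73144 CPM (counts scaled to a common library size with TMM factors) in imiquimod ears, 65135 to 71239 CPM in drug ears and 28478 to 31727 CPM in sham ears. On the first principal component of the 18 libraries of day 8, sham ears lay between -92.1 and -84.5, imiquimod ears between 41.8 and 55.6, and drug ears more widely, between 20.8 and 56.6. The drug and imiquimod groups did not differ on it beyond their spread (two-sided exact permutation test over all relabellings of the 12 libraries, p = 0.0801, 0.16 adjusted over 6 library measures). The drug group was uneven: for many genes below, libraries 51, 52, 54 and 56 lay toward sham, and libraries 53 and 55 lay near the imiquimod group.

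At day 8 few genes were called as changed with the drug, beside a large disease effect. Of those called higher, 195 of 230 had been lowered by imiquimod, beside 33.6% of all genes tested, and epidermal and sebaceous genes were among them. Both comparisons use the same 6 imiquimod libraries, so the 33.6% is not an independent background for that count. Of 3135 genes that imiquimod lowered by at least 1 on the log2 scale in the start-day experiment, 100 were called higher and 1 lower. A change was called at an adjusted p under 0.05 (edgeR quasi-likelihood F test, Benjamini-Hochberg over all 18780 genes tested). With this rule 293 genes were called, which is 1.56% of those tested: 230 were higher with the drug (1.22%) and 63 were lower (0.335%). Without adjustment, 2679 genes had an edgeR p under 0.05, so genes not called are not shown to be unchanged. Imiquimod alone against sham gave 12793 calls (68.1%), and drug-treated ears against sham still gave 12553 (66.8%). The called changes were small, with a median size of 0.45 on the log2 scale, and 39 reached a log2 fold change of 1, of which 34 were higher and 5 lower. All 6 drug libraries lay above or below all 6 imiquimod libraries for 313 genes (1.67% of those tested), 195 with the drug higher (1.04%) and 118 with the drug lower (0.628%). The number of calls depended on single libraries. It was 93 without drug library 54, 98 without 52 and 172 without 56. Leaving out imiquimod library 45, 46, 47, 48 or 49 gave 134, 137, 165, 111 or 124 calls. When each of the 12 libraries was left out in turn, 67 of the 293 genes were called every time, 58 of them higher and 9 lower. The spread estimate also mattered. With only the 2 compared groups in the fit, genes named below lost their call at edgeR adjusted p of 0.0513 (Far2), 0.0541 (Steap2), 0.0545 (Krt2), 0.0583 (Cngb1), 0.0674 (Cyp2j12), 0.0694 (Adh6b), 0.074 (Fa2h), 0.0875 (Skint9), 0.0907 (Prf1), 0.0909 (Tie1), 0.0941 (Uts2r) and 0.141 (Krtap19-2). With voom, Krt24 and Trgv5 lost theirs (adjusted p = 0.0607 and 0.0693).

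The 3 smallest p-values belonged to genes that metabolise drugs, lipids and other small molecules. Cyp2b10, a cytochrome P450 of the type induced by the nuclear receptor CAR, was at 18.1, 21 and 23.2 CPM (lowest, median and highest library) in imiquimod ears, at 27.8, 36 and 43.6 CPM in drug ears, and at 46 to 53.4 CPM in sham ears. The groups did not overlap, and the drug group lay between imiquimod and sham (log2 fold change 0.77 ± 0.11, standard error, as after every ± below, adjusted p = 6.76e-05, edgeR). Cyp3a57, of the P450 subfamily known for its induction through the receptor PXR, was at 1.40, 1.69 and 2.82 CPM with imiquimod, at 3.49, 4.46 and 6.05 CPM with the drug and at 9.84 to 14 CPM in sham ears. It rose by 1.25 ± 0.20 on the log2 scale, again without overlap (edgeR adjusted p = 0.00058). Cyp1a1, the classical target of the aryl hydrocarbon receptor, was at 3.64, 5.61 and 10.2 CPM with imiquimod and at 8.86, 13.3 and 20.2 CPM with the drug. The drug libraries reached the sham range of 13.1 to 27.8 CPM in 3 cases, and the groups overlapped through imiquimod library 44 and drug library 51 (1.23 ± 0.24, edgeR adjusted p = 0.00608).

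The families of these enzymes were examined after their values had been seen. Beside each family count stands the 1.22% called higher over all genes tested. Of 44 cytochrome P450 genes tested, 5 were called higher and 0 lower (median log2 fold change 0.20, against 0.00 over all genes tested), the others being Cyp2j12 (0.93) and the keratinocyte epoxygenase Cyp2b19 (0.50 ± 0.14). Imiquimod had lowered 29 of the 44 and raised 8, and 33 had a positive value with the drug. Of all genes that imiquimod lowered by at least 1 on the log2 scale in the start-day experiment, 71% had a positive value at day 8. Of 17 carboxylesterase and arylacetamide deacetylase-like genes, which split esters, 5 rose and all 17 had a positive value, with a median of 0.60. They were led by Aadacl4, at 3.64, 6.56 and 7.34 CPM with imiquimod and at 8.43, 13.4 and 17.6 CPM with the drug (1.17 ± 0.20, edgeR adjusted p = 0.00179). Aadacl2fm2 (1.08), Aadacl4fm4 (1.67), Ces1d (0.85) and Ces4a (0.60) also rose. Of 25 alcohol and aldehyde dehydrogenase genes 3 rose, while the median over the 25 was 0.07, with 17 positive values. Among the 3 was Adh6a, which went from a median of 1.57 to 5.17 CPM (1.51 ± 0.31) and was near 12.4 CPM in sham ears. The others were Adh6b (1.02) and Aldh2, which clears acetaldehyde and went from 137 to 163 CPM at the median without overlap (0.24 ± 0.05). Members of these families share sequence, and the counts are salmon estimates that divide shared reads, so the split between close copies such as Adh6a and Adh6b is uncertain. Cyp2b10, Cyp3a57, Cyp1a1, Aadacl4, Ces1d and Adh6a were called whichever library was left out, while Cyp2b19 was called in 2 of the 12 such fits.

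The 250 bases before the start of 4 genes that rose are printed here because each gene is a known target of a factor with a short recognition motif. They come from RefSeq on build GRCm38.p6, whereas the counts were made on GRCm39. Capitals mark matches, on either strand, to GCGTG (the core bound by the aryl hydrocarbon receptor), AGGTCA (the core bound by many nuclear receptors), CACGTG (an E-box, bound by clock proteins) or TGACTCA (the AP-1 site). The windows are chr7:25897408-25897657, chr5:145345019-145345268, chr9:57697363-57697612 and chr11:69098699-69098948, all on the plus strand.
Cyp2b10: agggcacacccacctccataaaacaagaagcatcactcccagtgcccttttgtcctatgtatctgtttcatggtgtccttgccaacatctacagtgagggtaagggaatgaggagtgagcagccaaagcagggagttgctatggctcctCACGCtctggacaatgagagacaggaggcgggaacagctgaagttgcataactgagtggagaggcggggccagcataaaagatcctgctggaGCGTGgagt
Cyp3a57: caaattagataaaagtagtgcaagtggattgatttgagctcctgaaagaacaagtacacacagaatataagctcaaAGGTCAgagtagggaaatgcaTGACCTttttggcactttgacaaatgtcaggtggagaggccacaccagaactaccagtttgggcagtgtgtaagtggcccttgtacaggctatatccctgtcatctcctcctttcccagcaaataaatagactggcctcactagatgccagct
Cyp1a1: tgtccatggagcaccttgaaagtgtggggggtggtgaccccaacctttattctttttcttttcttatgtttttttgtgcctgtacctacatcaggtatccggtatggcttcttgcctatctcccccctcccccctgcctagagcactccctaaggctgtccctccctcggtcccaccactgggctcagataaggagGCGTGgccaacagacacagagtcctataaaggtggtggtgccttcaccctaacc
Per1: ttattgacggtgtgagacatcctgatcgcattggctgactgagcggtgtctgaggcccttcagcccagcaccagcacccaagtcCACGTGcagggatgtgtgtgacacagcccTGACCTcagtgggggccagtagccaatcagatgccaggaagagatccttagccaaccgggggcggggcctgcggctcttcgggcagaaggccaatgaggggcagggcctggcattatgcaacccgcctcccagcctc
Cyp2b10 held 2 GCGTG and 0 AGGTCA matches, Cyp3a57 held 2 AGGTCA matches, Cyp1a1 held 1 GCGTG match, and Per1, a clock gene described further below, held 1 CACGTG and 1 AGGTCA match. Among windows of called genes that are not printed, those of Adh6a, Krt2, Flg2 and Cdsn held no match to any of these motifs. Those of Aadacl4, Krt24 and Jag1 held at least 1. Windows were found for 12860 of 18758 tested gene names. GCGTG was in 35.3% of 173 windows of genes called higher and in 42.1% of all windows, AGGTCA in 13.9% against 11% and CACGTG in 9.25% against 7.93%. TGACTCA was in 8.09% of windows of genes called higher, 4.35% of 46 windows of genes called lower and 3.58% of all windows. These shares are descriptions and do not show which factor, if any, was bound.

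**Figure D1:**
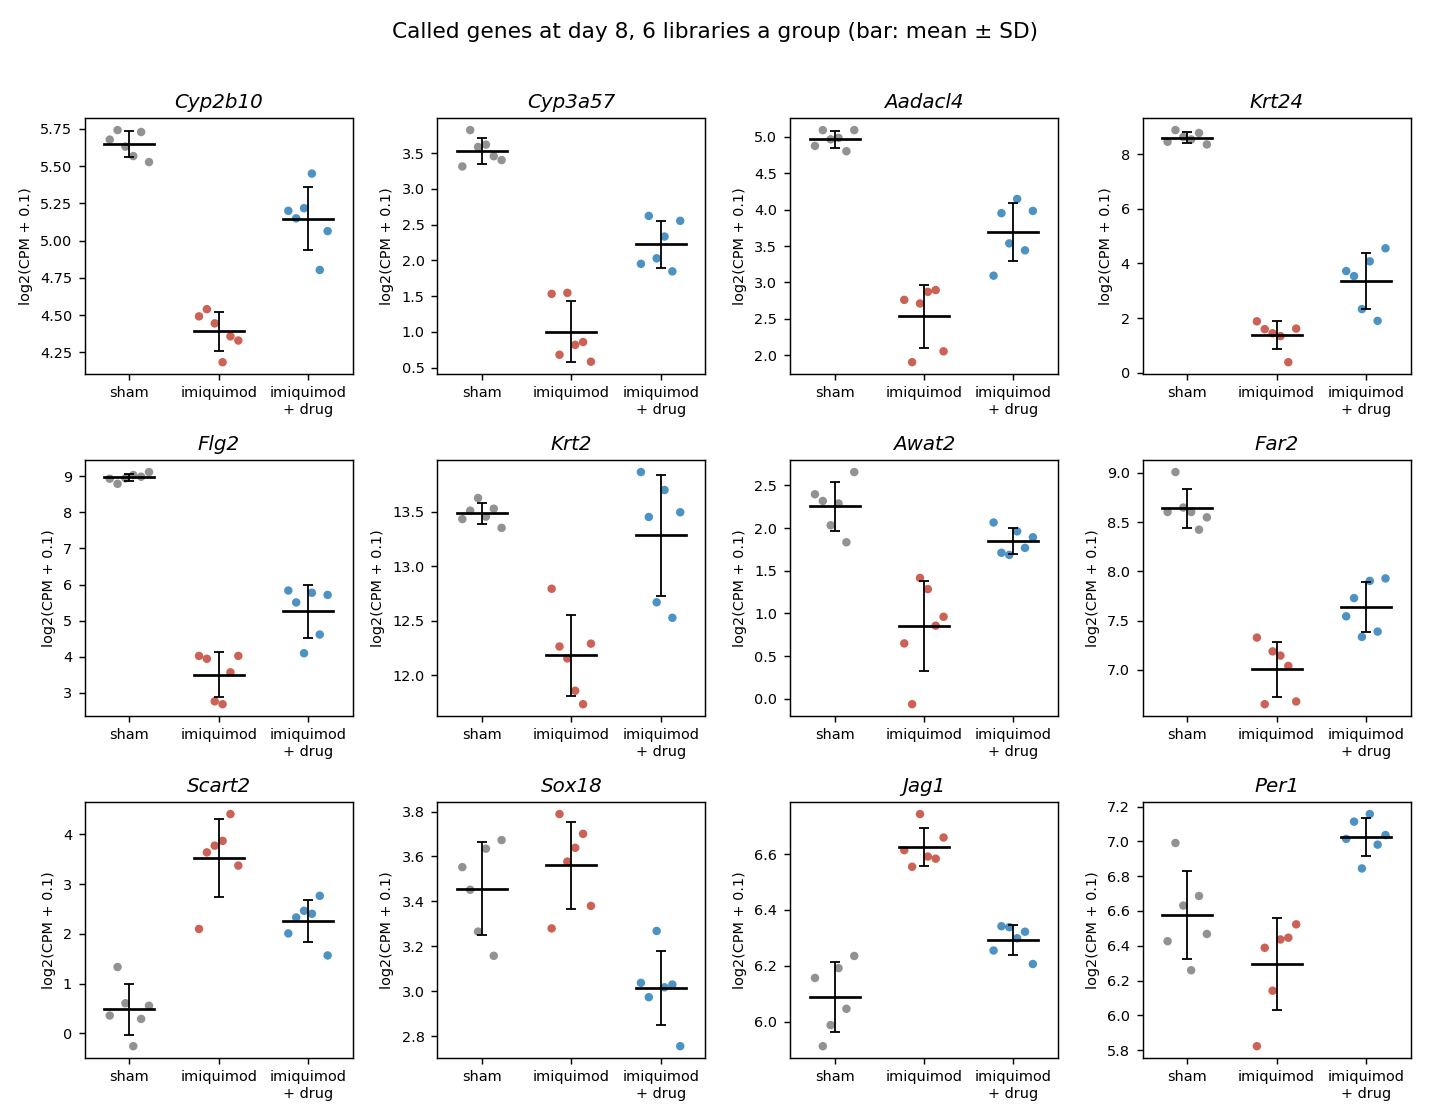
Levels of 12 genes called at day 8, as log2(CPM + 0.1), in each of 6 sham, 6 imiquimod and 6 imiquimod plus drug libraries (points), with the mean and SD of each group (bars). Cyp2b10, Cyp3a57, Aadacl4, Krt24, Flg2, Awat2, Far2 and Per1 of the drug group lie above every imiquimod library, while the groups overlap for Krt2 and Scart2.

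Genes of late keratinocyte differentiation, which build the cornified layer, were one of the groups that rose. Of 24 such genes tested, 6 were called higher and 0 lower, beside 1.22% called higher over all genes. Of the 24, 23 had a positive value, with a median of 0.56. The number called higher rested on single libraries. It was 10 without imiquimod library 44, 2 without imiquimod library 46, 48 or 49 or drug library 52, and 3 without imiquimod library 45 or 47 or drug library 54 or 56. Krt24, a suprabasal keratin, was at 1.21, 2.78 and 3.60 CPM with imiquimod and at 3.63, 12.3 and 23.4 CPM with the drug. Drug libraries 53 and 55, at 4.94 and 3.63 CPM, lay just above the imiquimod range, and all drug libraries stayed far under the 326 to 469 CPM of sham ears (2.21 ± 0.48, edgeR adjusted p = 0.0104). Flg2, which encodes filaggrin-2, a protein of the cornified layer, was at 6.33, 13.5 and 16.2 CPM with imiquimod, at 17, 48.8 and 57.0 CPM with the drug, and at 443 to 555 CPM in sham ears. It rose by 1.80 ± 0.46 on the log2 scale (edgeR adjusted p = 0.032), and was called in 3 of 12 fits without single libraries, where its adjusted p ran from 0.0183 to 0.0868.

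Krt2, the keratin of the upper spinous and granular layers, was at 3400, 4732 and 7098 CPM with imiquimod and at 5898, 11386 and 14934 CPM with the drug. Drug libraries 51, 52, 54 and 56 reached or passed the sham range of 10464 to 12658 CPM, and drug libraries 53 and 55 stayed inside the imiquimod range (1.15 ± 0.23, edgeR adjusted p = 0.00742). The same division was seen for Cngb1, a cation channel subunit (1.13 ± 0.24), and Krtap19-2, a hair keratin-associated protein (1.42 ± 0.38). The other called members were Cdsn, which encodes corneodesmosin, Hrnr, which encodes hornerin, and Klk5, a protease that sheds corneocytes, with values of 0.68, 0.64 and 0.56. Without single libraries Cdsn was called in 8 of 12 fits, and Hrnr and Klk5 in 3 of 12 each. The drug medians of Cdsn, Hrnr and Klk5, at 535, 519 and 112 CPM, lay above the sham medians of 493, 419 and 83.5 CPM. Members that did not pass included Lor (0.74 ± 0.24, edgeR adjusted p = 0.1), whose drug libraries nevertheless all lay above the imiquimod libraries, Flg (0.57) and Krt10 (0.32). Krt1 was the only member with a negative value (-0.26).

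Other epithelial genes were called beside this list. The epidermal serpin Serpinb6d went from 1.94, 3.34 and 4.92 CPM to 5.33, 10.6 and 19.1 CPM without overlap, still under the 81.2 to 105 CPM of sham ears (1.70 ± 0.40, edgeR adjusted p = 0.0213). Prss8, the membrane protease prostasin that the skin barrier needs, went from 12.6, 15.8 and 21.1 CPM to 23.9, 25.8 and 28.9 CPM and 5 of its 6 drug libraries lay in the sham range of 24.4 to 29.3 CPM (0.68 ± 0.13, edgeR adjusted p = 0.00384). Cst6, which encodes the protease inhibitor cystatin M/E of the cornified layer, also rose, with 5 of 6 drug libraries in the sham range (0.65 ± 0.12, edgeR adjusted p = 0.0038). Cdr2 rose by 0.46 ± 0.09 without overlap, and Skint9, of the family of Skint1, by 0.99 ± 0.25. Among 36 keratin genes, a family examined after its values had been seen, Krt2, Krt24, Krt79, Krt23, Krt80 and Krt15 were called higher and 0 lower, beside 1.22% called higher over all genes. The family as a whole moved little, with a median of 0.07 and 21 positive values of 36. Krt15, a keratin of basal and follicle stem cells, rose from a median of 162 to 275 CPM against 1734 CPM in sham ears, while the basal keratins Krt5 and Krt14 were at -0.02 and -0.06. Of 10 basal and hemidesmosome genes, Krt15 and Col17a1 were called and the median was -0.03.

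Several sebaceous gland genes, which make the lipids of sebum, also rose. Of 12 tested, 7 were called higher and 0 lower, with a median of 0.61, beside a background of 1.22% called higher over all genes. Awat2, a wax ester synthase, was at 0.857, 1.78 and 2.57 CPM with imiquimod, at 3.12, 3.46 and 4.08 CPM with the drug, and at 3.46 to 6.20 CPM in sham ears (0.95 ± 0.21, edgeR adjusted p = 0.0111). Its drug libraries did not overlap with the imiquimod libraries and partly overlapped with sham. Far2, which makes fatty alcohols for wax esters, went from 100, 137 and 161 CPM to 161, 199 and 244 CPM, under the 343 to 515 CPM of sham ears (0.63 ± 0.14, edgeR adjusted p = 0.0112). Cidea and Plin2, both proteins of lipid droplets, rose by 0.67 and 0.44, Fa2h, a fatty acid hydroxylase, by 0.73, Elovl3, a fatty acid elongase, by 0.69 and Awat1 by 0.66. Scd3 (-0.14) and Mogat1 (-0.31) did not pass. The count was 4 of 12 when only the compared groups were fitted, and also 4 without imiquimod library 45 or 49 or drug library 54. The summed level of the list ran from 2455 to 3877 CPM with imiquimod, from 3542 to 4827 CPM with the drug and from 8760 to 11467 CPM in sham ears. In bulk samples, more cells of a type and more RNA per cell cannot be told apart.

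Of 18 cholesterol synthesis genes all had values above 0, with a median of 0.14. Dhcr7, an enzyme at the end of the pathway, was called (0.25 ± 0.06). Of 12 barrier lipid genes 1 was called, the fatty acid elongase Elovl4 (0.39 ± 0.10), beside 1.22% called higher over all genes. Adipocyte markers gave 0 calls of 11, yet all 11 values were positive with a median of 0.32. Their summed level was 369 to 486 CPM with imiquimod and 431 to 602 CPM with the drug (two-sided exact permutation test, p = 0.0195, 0.0584 adjusted over 6 library measures). Cartilage markers had the same p with 523.6 to 667 CPM against 622 to 700.4 CPM, and 0 of 12 were called. Muscle markers (0 of 12 called) lay at 2342 to 3575 CPM and 2522 to 4475 CPM. For the muscle sum the groups overlapped (exact permutation p = 0.448). Schwann cell markers gave 0 calls of 8, yet all 8 values were positive with a median of 0.31. Their summed level, which was not tested, was 328 to 493 CPM with imiquimod and 367 to 589 CPM with the drug. No tested sum passed after adjustment, and the part of these tissues in the other results was not tested.

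**Figure D2:**
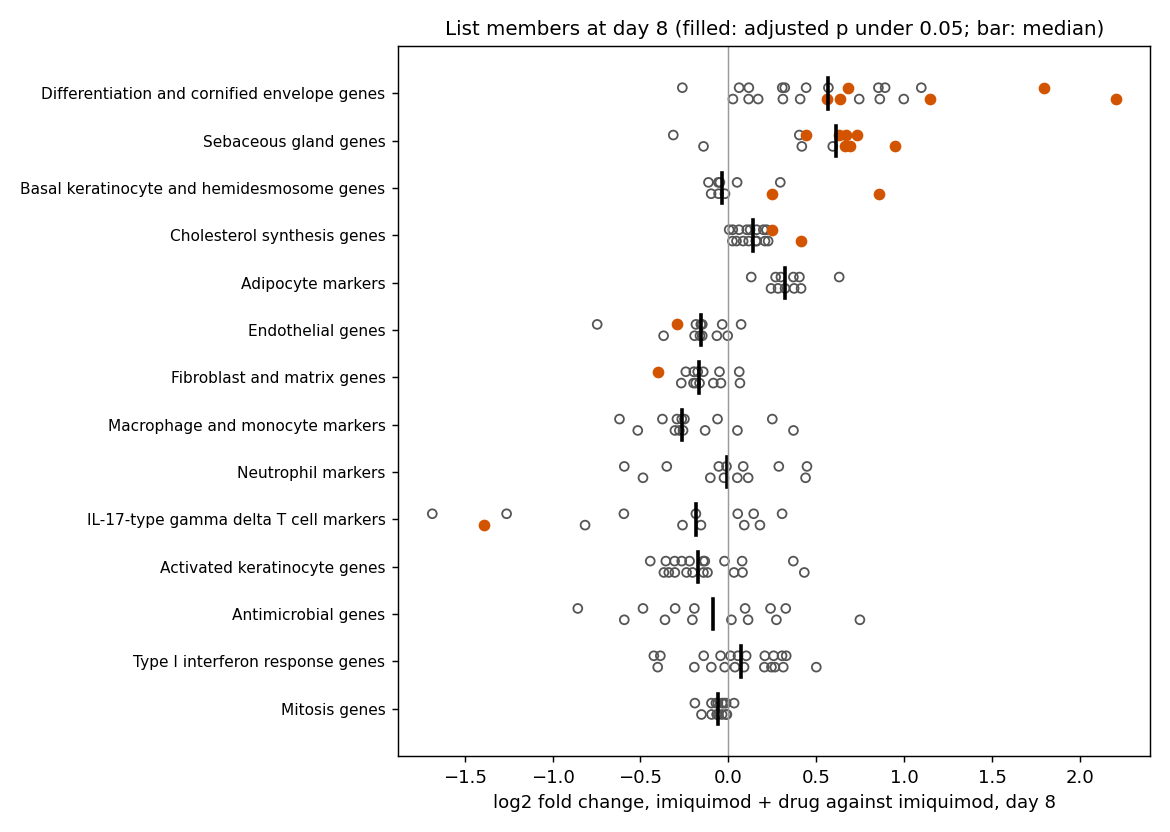
Log2 fold change at day 8 of each tested member of 14 gene lists, imiquimod plus drug against imiquimod alone, with filled points for genes called at an adjusted p under 0.05 and bars for the list medians. Calls to the right of 0 gather in the differentiation list (6 of 24) and the sebaceous list (7 of 12), while the neutrophil, macrophage, activated keratinocyte, antimicrobial, interferon and mitosis lists hold none.

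Among the 63 genes that fell, the smallest p belonged to Scart2, a surface receptor found on gamma delta T cells that make IL-17. It was at 0.736 to 2.42 CPM in sham ears, at 4.18, 13 and 21.2 CPM with imiquimod, and at 2.86, 5.06 and 6.70 CPM with the drug. Imiquimod library 44, at 4.18 CPM, was the lone one inside the drug range, and the other 5 lay above every drug library (-1.39 ± 0.24, edgeR adjusted p = 0.00249). Scart2 fell whichever library was left out, by 1.19 to 1.57 on the log2 scale. It was the only called gene of 13 tested on the list of IL-17-type gamma delta T cell markers, beside 0.335% called lower over all genes. The median of that list was -0.18, with Il17a at -1.68 ± 0.61, Il17f at -1.26 ± 0.44, and Blk, a kinase of these cells, at -0.82. Of its 13 values 8 were negative and 5 positive, the highest at 0.31. The summed level of the list was not lower with the drug, at 287 to 328 CPM with imiquimod and 305 to 378 CPM with the drug.

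On other T cell lists the called members went in different directions. Itgae, the integrin chain CD103 that holds lymphocytes and dendritic cells in epithelium, fell from 5.65, 7.54 and 11.4 CPM to 3.66, 4.97 and 6.59 CPM (-0.67 ± 0.16, edgeR adjusted p = 0.0205), with 5 of 6 drug libraries under all imiquimod libraries. Trgv5, a receptor segment of epidermal gamma delta T cells, was near the detection limit, at 0 to 0.143 CPM with imiquimod and 0.0469 to 0.624 CPM with the drug, against 0.69 to 2.05 CPM in sham ears (2.26 ± 0.62, edgeR adjusted p = 0.0432). It was called in 3 of 12 fits without single libraries, with adjusted p up to 0.155. Prf1, which encodes perforin, rose by 1.01 ± 0.26 from a median of 0.652 to 1.37 CPM (edgeR adjusted p = 0.0294) and was called in 7 of 12 such fits. Of 16 T cell and cytotoxic genes it was the only one called, beside 1.22% called higher over all genes, and 11 had negative values.

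Some single genes expressed in vessels and stroma fell, while most members of the endothelial and fibroblast lists did not pass. Sox18, a transcription factor of endothelium, was at 9.61, 12.1 and 13.7 CPM with imiquimod and at 6.66, 8.04 and 9.54 CPM with the drug, without overlap and with 5 of 6 drug libraries under the 8.83 to 12.7 CPM of sham ears (-0.55 ± 0.10, edgeR adjusted p = 0.0038). Kdr, the VEGF receptor, fell by 0.29, and Tie1, another endothelial receptor, noticed after its value had been seen, fell by 0.26 on the log2 scale. Of 13 endothelial genes tested Kdr alone was called, beside 0.335% called lower over all genes tested. Of the 13 values 12 were negative and the median was -0.16. Cdh11, a cadherin of mesenchymal cells, also noticed after its value had been seen, fell by 0.37 without overlap. Jag1, a Notch ligand, went from 93.9, 97.1 and 107 CPM to 73.8, 79.3 and 81.0 CPM, toward the 60.1 to 75.2 CPM of sham ears (-0.33 ± 0.06, edgeR adjusted p = 0.0038). Lum, which encodes the collagen-binding protein lumican, went from 226, 233 and 269 CPM to 158, 181 and 210 CPM (-0.40 ± 0.10). It was the only called gene of 14 on the fibroblast list, whose median was -0.17, beside the same 0.335%. Kdr was called in 4 and Lum in 7 of the 12 fits without single libraries, whereas Sox18 and Jag1 were called in all 12.

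The remaining lower genes were of varied kinds. Hgsnat, a lysosomal enzyme that degrades heparan sulphate, and Arpin, an inhibitor of the Arp2/3 actin complex, both raised by imiquimod, fell by 0.32 and 0.24 on the log2 scale without overlap. Ppm1l, a phosphatase, fell by 0.38, Brca2, a DNA repair gene, by 0.51, and the metalloproteinase Adamts7 by 0.61. C1qtnf7 fell by 0.58, Meis3 by 0.54 and Steap2 by 0.43. Uts2r, the urotensin receptor, was already lower with imiquimod than in sham ears and fell further, from a median of 2.91 to 1.40 CPM (-0.79 ± 0.22, edgeR adjusted p = 0.0474), though it was called in 3 of 12 fits without single libraries. Dnm3os, an RNA transcribed against Dnm3, fell by 0.52, with the reservation that the sources used here do not name the strand setting of the counting.

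Of the genes chosen to describe the disease itself, none was called at day 8. S100a8, a subunit of the neutrophil and keratinocyte protein calprotectin, was at 1976, 2271 and 2610 CPM with imiquimod and at 850, 1628 and 2320 CPM with the drug, against at most 3.51 CPM in sham ears. Drug libraries 51, 52, 54 and 56 lay under all imiquimod libraries and libraries 53 and 55 inside their range (-0.49 ± 0.52, edgeR adjusted p = 0.737). S100a9, its partner subunit, was at 2344, 2721 and 3123 CPM and at 874, 1794 and 2663 CPM (-0.59 ± 0.52). The stress keratin Krt6a was at 3226, 4387 and 5433 CPM with imiquimod and at 1743, 3463 and 5530 CPM with the drug (-0.31 ± 0.44). For Il1b, an inflammatory cytokine, the drug group spread on both sides of the imiquimod group: imiquimod libraries held 34.5, 59.6 and 70.8 CPM, drug libraries 53 and 55 held 135 and 186.5 CPM, and drug library 54 held 22 CPM (0.46 ± 0.67). Cxcl2, a neutrophil attractant, had its highest drug values, 98.5 and 53.8 CPM, in the same libraries 55 and 53. Ifit1, a type I interferon target, was nearly equal (-0.04 ± 0.39).

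The T cell cytokines had few counts. Over 6 libraries Il17a gave 74 counts with imiquimod, 28 with the drug and 2 in sham ears. Drug libraries held 0.052, 0.168 and 0.472 CPM against 0.367, 0.678 and 1.35 CPM with imiquimod, and 4 of 6 drug libraries lay under all imiquimod libraries (-1.68 ± 0.61, edgeR adjusted p = 0.155). Il17f gave 511 and 263 counts, with 5 of 6 drug libraries under all imiquimod libraries (-1.26 ± 0.44, edgeR adjusted p = 0.134). Il22 (-0.89 ± 0.50) did not pass either, and Il23a, the IL-23 subunit that acts upstream, was nearly equal (0.08 ± 0.46). Under limma voom with sample weights Il17a and Il17f did pass, with adjusted p of 0.0414 and 0.0133. Il17f also passed with DESeq2 on the compared groups alone (-1.27, adjusted p = 0.00376), an alternative added after seeing the data, but not with DESeq2 on all groups (adjusted p = 0.187) or edgeR on the compared groups (0.0689).

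For the drug's own axis the values went in opposite directions. Ccl20, the ligand of CCR6, was at 0.302 to 0.941 CPM in sham ears, at 1.29, 3.56 and 8.29 CPM with imiquimod and at 2.70, 10.7 and 16.8 CPM with the drug. Of the drug libraries 4 lay above every imiquimod library (1.44 ± 0.51, edgeR adjusted p = 0.148). Ccr6 itself was at 0.786, 1.08 and 2.21 CPM with imiquimod and 0.195, 0.871 and 1.22 CPM with the drug (-0.59 ± 0.38, edgeR adjusted p = 0.509), from 122 and 100 counts.

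**Figure D3:**
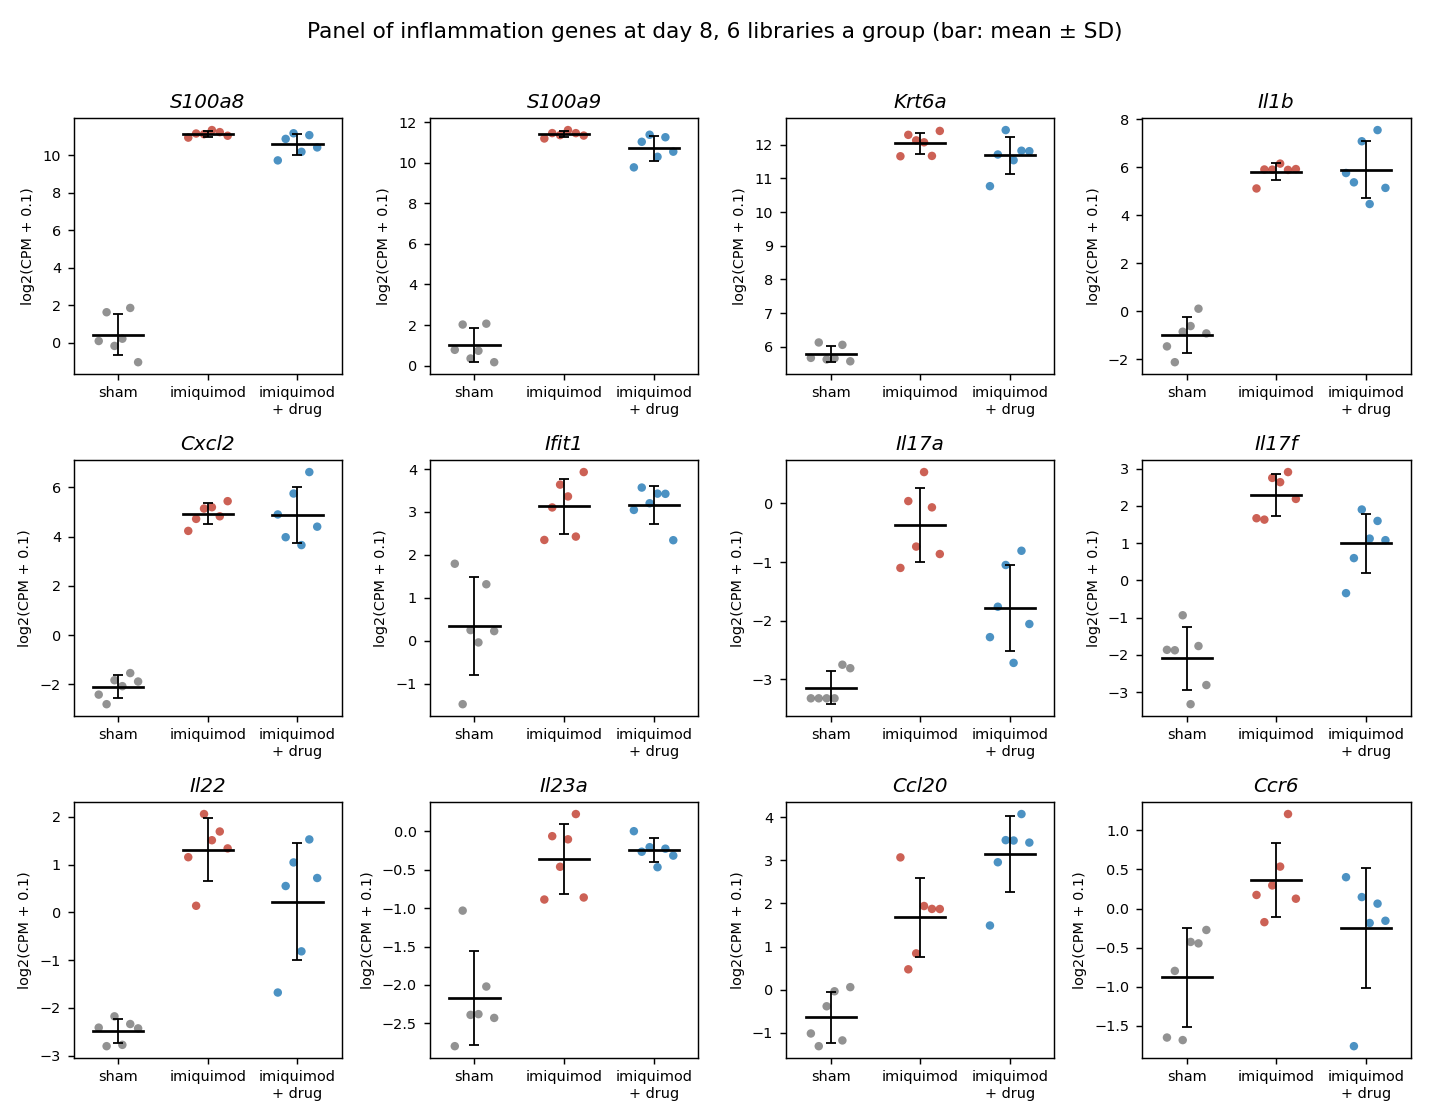
Levels of 12 disease genes as log2(CPM + 0.1) in each library of day 8, with the mean and SD of 6 libraries a group. None was called between drug and imiquimod, the drug libraries spread more widely than the imiquimod libraries for S100a8, Il1b and Cxcl2, and most drug libraries are low for Il17a and Il17f and high for Ccl20.

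Lists of inflammatory genes gave the same picture. With edgeR, 0 of 13 neutrophil markers, 0 of 8 neutrophil attractants, 0 of 14 macrophage markers, 0 of 14 antimicrobial genes, 0 of 20 activated keratinocyte genes and 0 of 22 type I interferon genes were called. At an unadjusted edgeR p under 0.05 the counts were 0, 0, 5, 2, 1 and 1, beside 2679 of all 18780 genes tested. Of the 14 macrophage markers 11 had negative and 3 positive values, and of the 13 neutrophil markers 7 and 6. Their medians lay between -0.26 (macrophage markers, among them Cd163 at -0.62 and Mrc1 at -0.52, scavenger receptors of resident macrophages) and 0.31 (neutrophil attractants). The summed level of the neutrophil markers was 4421 to 5864 CPM with imiquimod, 1832 to 5188 CPM with the drug and at most 102.5 CPM in sham ears. DNA replication (0 of 14) and mitosis genes (0 of 15) had medians of -0.10 and -0.06. At day 5 the same drug had lowered 13 of 13 neutrophil markers, 14 of 14 macrophage markers and 11 of 20 activated keratinocyte genes, in a comparison with 6654 calls (35.4% of genes tested), and in the start-day experiment, with 6466 calls (35.1%), it lowered 12 of 12, 11 of 14 and 16 of 20. A call at 1 day and none at the other is not a test of a difference. Tested directly, the drug effect differed between day 8 and day 5 for 4 of 13, 2 of 14 and 1 of 20 of these genes. For the 12 disease panel genes the count was 0, beside 4.81% of all genes tested.

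The called genes were then read at day 5 and in the start-day experiment, whose libraries lie outside the compared groups. The day 5 libraries shared the low-count filter and the estimate of spread with the day 8 comparison, and those of the start-day experiment were fitted apart. Of the 230 genes higher at day 8, 209 were also called higher at day 5 and 0 lower, beside 18.3% of all genes called higher there. In the start-day experiment 229 of the 230 could be tested: 193 were called higher, beside 18.2% of all genes, 0 were called lower, and 224 had a positive value. Their median log2 fold change was 0.53 at day 8, 0.69 at day 5 and 0.54 in the start-day experiment. Of the 63 lower genes, 40 were called lower at day 5 (background 17.2%) and 39 in the start-day experiment (background 16.9%), where 57 had a negative value, and the medians were -0.33, -0.24 and -0.18. Across all 18198 genes tested in both experiments, the effect at day 8 and that in the start-day experiment had a Pearson r of 0.34 and a Spearman rho of 0.42. Such correlations describe genes, which are not independent replicates.

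**Figure D4:**
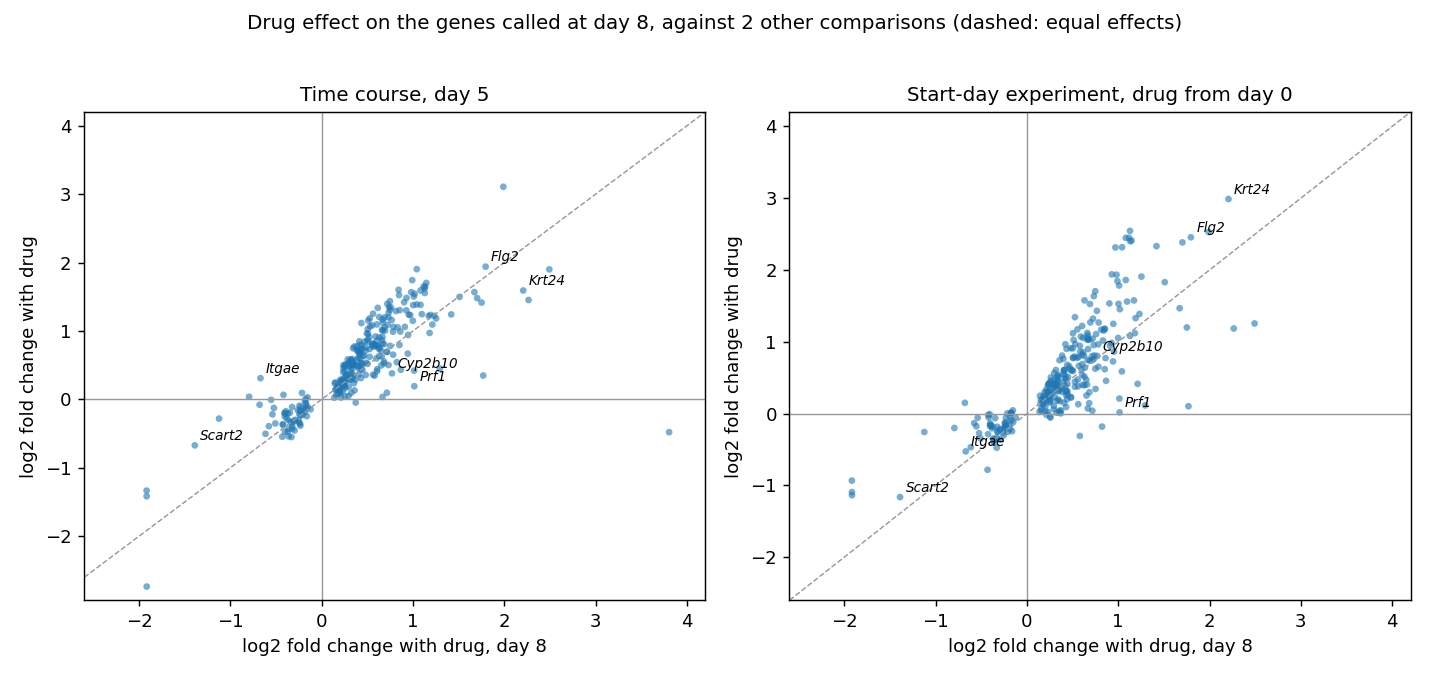
Log2 fold change with the drug at day 8 (horizontal) of the genes called at day 8 against that at day 5 (left) and in the start-day experiment with the drug from day 0 (right, 292 genes), with a dashed line of equal effects. Most points lie in the quadrants of equal sign, and Prf1 and Itgae are among those near 0 or of the other sign at day 5.

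In 195 of the 230 higher genes imiquimod alone had lowered the level against sham, in 8 it had raised it, and in 27 neither was called. Over all genes tested, imiquimod lowered 33.6% and raised 34.5%. With the drug 133 were still below sham, 33 were above it and 64 were not called against it, beside 32.6% of all genes below and 34.2% above. Of the 63 lower genes imiquimod had raised 43 and lowered 5, and with the drug 28 were still above sham. These comparisons share libraries with the drug comparison. The larger sets of imiquimod genes were therefore chosen in the start-day experiment, where imiquimod against sham gave calls for 78.1% of genes, 38.1% higher and 39.9% lower. The 2166 genes raised there by at least 1 on the log2 scale had a median imiquimod effect of 1.46 at day 8 of the time course and a median drug effect of -0.08, with 7 called higher and 9 lower. The 3135 genes lowered there had a median imiquimod effect of -1.07 and a median drug effect of 0.13, with 100 called higher and 1 lower. At day 5 the drug medians of these sets were -0.39 and 0.44. By library, the raised set lay 1.30 to 1.48 over sham with imiquimod and 1.13 to 1.5 with the drug, and the lowered set -1.12 to -0.96 and -1.09 to -0.75, so the groups overlapped for both.

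**Figure D5:**
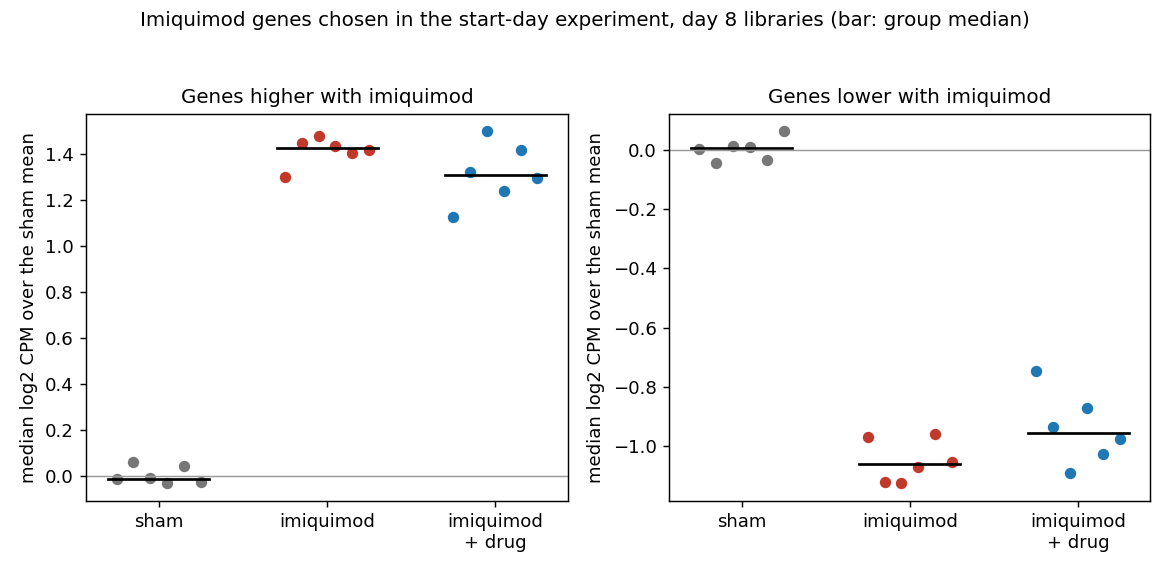
Median log2 CPM over the sham mean of 2166 genes raised (left) and 3135 genes lowered (right) by imiquimod in the start-day experiment, for each library of day 8, with the median of each group as a bar. The drug libraries overlap with the imiquimod libraries in both sets and are spread more widely.

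The drug effect at day 8 was tested against that at day 5 gene by gene, and 903 genes differed (4.81% of those tested, edgeR, adjusted p under 0.05), 526 with a higher (2.8%) and 377 with a lower value at day 8 (2.01%). The smallest p-values went to genes of which the drug changed the level at day 5 and which were not called at day 8. Sox21, a transcription factor of hair follicle and epidermis, rose by 0.75 ± 0.10 at day 5 and was at -0.18 ± 0.10 at day 8 (difference -0.93, edgeR adjusted p = 0.000282). Skint1, a keratinocyte protein that selects epidermal gamma delta T cells, rose by 1.33 at day 5 and was at 0.09 at day 8 (difference -1.24). Il17ra, a receptor chain for IL-17A and IL-17F, and Pfkfb3, an activator of glycolysis, fell by 0.71 and 0.72 on the log2 scale at day 5 and were at 0.02 and 0.42 at day 8 (differences 0.73 and 1.14). Ldhb, a lactate dehydrogenase subunit, rose at day 5 (0.87) and was at 0.24 at day 8, and Mettl24 rose at day 5 (1.54) and was at -0.54. The total rested on single libraries and on the model. It was 123 without drug library 53 of day 8, 309 without 55, 1572 without 51, 398 and 587 without imiquimod libraries 44 and 48, 194 and 443 without imiquimod libraries 30 and 25 of day 5, and 482, 202, 543 and 2068 without drug libraries 31, 32, 34 and 36 of day 5. It was 138 when the 4 compared groups alone were fitted.

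Against the start-day experiment 161 of 19455 genes differed (0.828%), 65 with a higher (0.334%) and 96 with a lower value at day 8 (0.493%). Ier3, an immediate early gene, fell by 0.64 on the log2 scale in the start-day experiment and was at 0.37 ± 0.13 at day 8 (difference 1.01 ± 0.18, edgeR adjusted p = 0.00389). Hopx, a cofactor of keratinocyte differentiation, fell by 0.45 there and was at 0.20 at day 8. Colec12, a scavenger collectin, and Col8a2, a collagen chain, rose by 0.29 and 0.55 there and were at -0.13 and 0.05 at day 8. Far2 rose in both, by 1.58 and 0.63, with a smaller value at day 8 (difference -0.95, edgeR adjusted p = 0.0134).

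Per1, a core gene of the circadian clock that glucocorticoids also induce, was looked at after its value had been seen. It was at 56.5, 85.1 and 91.9 CPM with imiquimod, at 115, 130 and 143 CPM with the drug and at 76.5 to 127 CPM in sham ears, so the drug group lay above all imiquimod libraries (0.71 ± 0.14, edgeR adjusted p = 0.00742). It also rose with the drug in the start-day experiment (0.74) and was at 0.10 at day 5. The clock paralogue Arntl2 fell by 0.40 on the log2 scale without overlap (edgeR adjusted p = 0.00909). Per1 was the only called gene of 19 on a clock list, beside 1.22% called higher over all genes. Of the 19, 14 had a positive value, with a median of 0.18. At day 5, 11 of them were called higher and 2 lower, beside 18.3% and 17.2% of all genes. In the start-day experiment 12 were called higher and 2 lower, beside 18.2% and 16.9%. The sources used here do not give the hour at which ears were taken.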

How the data were processed

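Ear punches were kept in RNAlater, RNA was isolated with TRI reagent, and 1 µg entered a Universal Plus mRNA kit, per the labels' protocols. The authors deposited estimated counts per gene, named as salmon output. The genome build was GRCm39, per the submitters' processing notes, and the sources used here give no salmon version, annotation or strand setting. Estimated counts were rounded to whole numbers. Genes passing edgeR's filterByExpr (18780 in the time course) were scaled by TMM factors and fitted with edgeR 4.0.16 (R 4.3.3, limma 3.58.1) by quasi-likelihood, with all 9 groups of the time course in 1 model. The start-day experiment was fitted on its own, and both were joined to test the difference between experiments. Genes named are the disease panel, the 10 highest and 10 lowest called log2 fold changes at a mean log2 CPM of at least 1, the 6 smallest adjusted p in each direction and in each test of a difference, and up to 5 members of a list by adjusted p, plus members that show what did not pass. The members and lists were chosen with earlier results of these data known. Family and promoter choices followed the values. Alternatives were DESeq2 1.42.0, RLE factors, other filters, voom, fits of the compared groups and single libraries left out. No libraries were duplicates: the lowest chi-square per gene between replicates was 3.93. On simulated counts of the day 8 comparison (18600 genes, 50 of them changed per size), 78% of changes of 1.5-fold, 94% of 2-fold, 98% of 4-fold and 100% of 8-fold were called, with 9 false calls. The changed genes were drawn only from those above a floor of mean counts, and every group was given the same spread for a gene. These shares therefore do not cover genes with few counts, nor the wider spread of the drug group. Depth over the time course was 13.1 M to 35.4 M counts per library, and few counts limit genes such as Il17a. Some genes that the naming rule covers are not reported here.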

Additional observations from a re-analysis of the deposited data

Results flagged for a closer look

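In 178 groups of 6 libraries checked for a library far from the others (by the gap to its nearest neighbour over the range), 6 stood out, and chance gives about 1 in 20. Imiquimod library 44 was high for Ccl20 (8.29 CPM) and Cyp2b19 (92.0 CPM) and low for Il1b (34.5 CPM). Drug library 55 was low for Ces1d (5.48 CPM), drug library 53 high for Pfkfb3 (60.1 CPM), and drug library 51 high for the muscle marker sum (4475 CPM).

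Several named genes had a drug effect at day 8 that differed from that at day 5 (edgeR, adjusted p under 0.05). The difference on the log2 scale, day 8 minus day 5, was -0.26 for Aldh2, -0.40 for Col8a2, -0.30 for Colec12, 0.84 for Ier3, 0.73 for Il17ra, -0.98 for Itgae and -0.52 for Krt79. It was -0.63 for Ldhb, -2.08 for Mettl24, 1.14 for Pfkfb3, -1.24 for Skint1, -0.55 for Sox18 and -0.93 for Sox21. Against the start-day experiment the difference was -0.50 for Col8a2, -0.43 for Colec12, -0.91 for Fa2h, -0.95 for Far2, 0.65 for Hopx and 1.01 for Ier3. It was 0.47 for Il17ra, -0.62 for Krt79, -0.48 for Ldhb, 0.85 for Pfkfb3, -1.002 for Skint1 and -0.74 for Sox21.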

How the results depend on the processing

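The 293 calls at day 8 became 521 with DESeq2 (406 higher, 115 lower), 147 without a filter on low counts, 847 with voom, 809 with DESeq2 on the compared groups alone (added after seeing the data), and 39 with a log2 fold change of at least 1. They ranged from 93 to 426 with single libraries left out. Of the 293, 286 were called by DESeq2, 288 by voom and 204 when edgeR was given the compared groups alone. The 903 differences between day 8 and day 5 became 345 without a filter, 1830 with voom, 138 with the compared groups alone and 163 at log2 1, and ranged from 123 to 2068 with single libraries left out. RLE factors gave 644 higher and 300 lower. The 6466 calls of the start-day experiment became 577 at log2 1. The 161 differences between experiments became 408 with DESeq2, 47 without a filter, 652 with voom and 26 at log2 1. The median drug effect over genes lowered by imiquimod was 0.26 for those lowered by at least 2 on the log2 scale. Values that changed sign were all of uncalled genes. With voom Il1b was at -0.033, Cxcl2 at -0.17 and Ifit1 at 0.00076. Without single libraries Il23a ran from -0.036 to 0.22, Cxcl2 from -0.25 to 0.47, Il17ra from -0.047 to 0.066, and Ifit1 reached 0.04, 0.15 and 0.09. Sebaceous calls ranged from 4 to 9 and differentiation calls from 2 to 10 with single libraries left out, and the latter were 3 without a filter, 11 with DESeq2, 12 with voom and 15 with DESeq2 on the compared groups. The cause was not tested. No paired analysis was possible because the compared groups share no replicate numbers. Few counts limit Il17a, Il22, Ccr6 and Trgv5.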
